A study of Mus musculus with 4 samples.

Results

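Tafazzin, encoded by Taz, and the enzymes that make, remodel and move cardiolipin were followed in pancreatic islets of mice with reduced Tafazzin. The group holds 10 genes out of 24940 in the deposited table. They were taken by symbol, as known cardiolipin genes, with earlier results of these data known. Each symbol matched 1 row: Taz, Crls1, Pgs1, Ptpmt1, Tamm41, Lclat1, Pnpla8, Pla2g6, Plscr3 and Cds2. All 10 passed the filter on low values.

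Cardiolipin is the signature phospholipid of the inner mitochondrial membrane, where it binds the respiratory complexes and shapes the cristae. It is built from phosphatidic acid through CDP-diacylglycerol, phosphatidylglycerol phosphate and phosphatidylglycerol. The finished lipid is then remodelled: phospholipases remove an acyl chain to give monolysocardiolipin, and Tafazzin puts another chain back from a different phospholipid. Loss of human Tafazzin causes Barth syndrome, in which monolysocardiolipin accumulates and heart and skeletal muscle fail. In islets, mitochondrial ATP production couples glucose to insulin release.

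The study compared islets of Tafazzin-knockdown mice with islets of non-transgenic controls, all from males aged 3 to 4 months on a low-fat chow diet. Each group had 2 libraries of total RNA depleted of ribosomal RNA, called control replicates 1 and 2 and knockdown replicates 3 and 4. A library came from about 300 islets pooled from 2 to 3 mice, so that differences between single mice are not visible. The construct that lowers Tafazzin is not given in the sources used here, and because the controls carried no transgene, effects of the transgene and of Tafazzin loss cannot be told apart.

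Levels are given in units, where 1 unit is a read per 10000000 reads of the library, a total inferred from the values. They carry no correction for gene length and take in the whole span of a gene, introns included and without regard to strand, as far as the table shows, although the labels describe a directional library kit. The library totals inferred in this way were 68823160 to 81073502 reads. Dominant rows were the 13 with a mean above 25000 units, ribosomal RNA among them, leaving out Ins1 and Ins2. Reads outside these rows, those of Ins1 and Ins2 included, numbered only 4320910 to 4962798. Control replicate 2 had the smallest share of such reads, 5.33% of its total against 6.31% to 6.68% in the other libraries. Over the 13531 tested genes, log2(value + 1) was in the median 0.26 higher in control replicate 1 than in control replicate 2, and 0.17 higher in the knockdown than in the controls (-0.0046 after median-ratio scaling). Each log2 fold change below has this shift subtracted and carries a standard error (SE) and a 95% interval, but the p-values of limma are for the change without the subtraction. The intervals take the median as fixed and are not adjusted for the number of genes. Their SE is that of the fit without the subtraction, with the offset between the libraries left in. After median-ratio scaling the SE was 0.12 rather than 0.23 for Cds2, and 0.20 rather than 0.25 for Taz. Of the cardiolipin genes only Tamm41 had a larger SE after scaling, 0.39 rather than 0.35. The intervals below are thus not the spread of a gene on a common scale. With 2 libraries a group, an exact two-sided permutation test of a single value cannot go below 0.333, so that the tests borrow the spread of all genes.

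Taz itself was read lower in both knockdown libraries than in both controls, a difference that missed the threshold of the test across all genes. The gene, listed as NM_181516, lies on mm10 chromosome X from 74282718 to 74290151 on the plus strand. Exons of the listed transcript cover 1830 of the 7434 bases of this span (24.6%) in GENCODE M21, and no other gene of the table overlaps it. Taz was read at 23.1 units in control replicate 1 and 15.4 in control replicate 2, and at 13.8 and 12.7 units in knockdown replicates 3 and 4. Both knockdown libraries lay below both controls, and control replicate 1 stood well above the other 3 libraries. These values rest on 159, 125, 106 and 100 reads. Their 95% Poisson intervals, which cover counting error only, ran from 19.7 to 27.0 and from 12.8 to 18.4 units in the controls, and from 11.3 to 16.7 and from 10.3 to 15.5 in the knockdown. The intervals of control replicate 2 and of both knockdown libraries thus overlapped.

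The mean of Taz was 19.3 ± 5.43 units for the controls against 13.3 ± 0.782 for the knockdown (SD, n = 2 a group). Its log2 fold change was -0.65 ± 0.25 SE, with an interval from -1.15 to -0.15, which is a level of 0.639 times the control (interval 0.452 to 0.904). The limma p-value was 0.0595 unadjusted and 0.529 after adjustment over all genes. After median-ratio scaling, which puts the libraries on a common level, Taz stood at 22.3 and 18.2 against 12.9 and 12.03 units, with an unadjusted limma p of 0.00311 and an adjusted p of 0.136. On the recovered whole reads edgeR gave an adjusted p of 0.141 (unadjusted 0.00334) and DESeq2 an adjusted p of 0.599 (unadjusted 0.0149). Without moderation across genes, where the spread is that of Taz alone, limma gave an unadjusted p of 0.231 and an adjusted p of 0.821. Over all alternatives the adjusted p ran from 0.0832 without control replicate 2 to 1.0, and no alternative gave a call. The log2 fold change ran from -0.79 without control replicate 2 to -0.50 without control replicate 1, where the adjusted limma p was 0.644. Pooled islets mix cell types, so that fewer cells that express Taz and less Taz RNA per cell cannot be told apart.

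**Figure D1:**
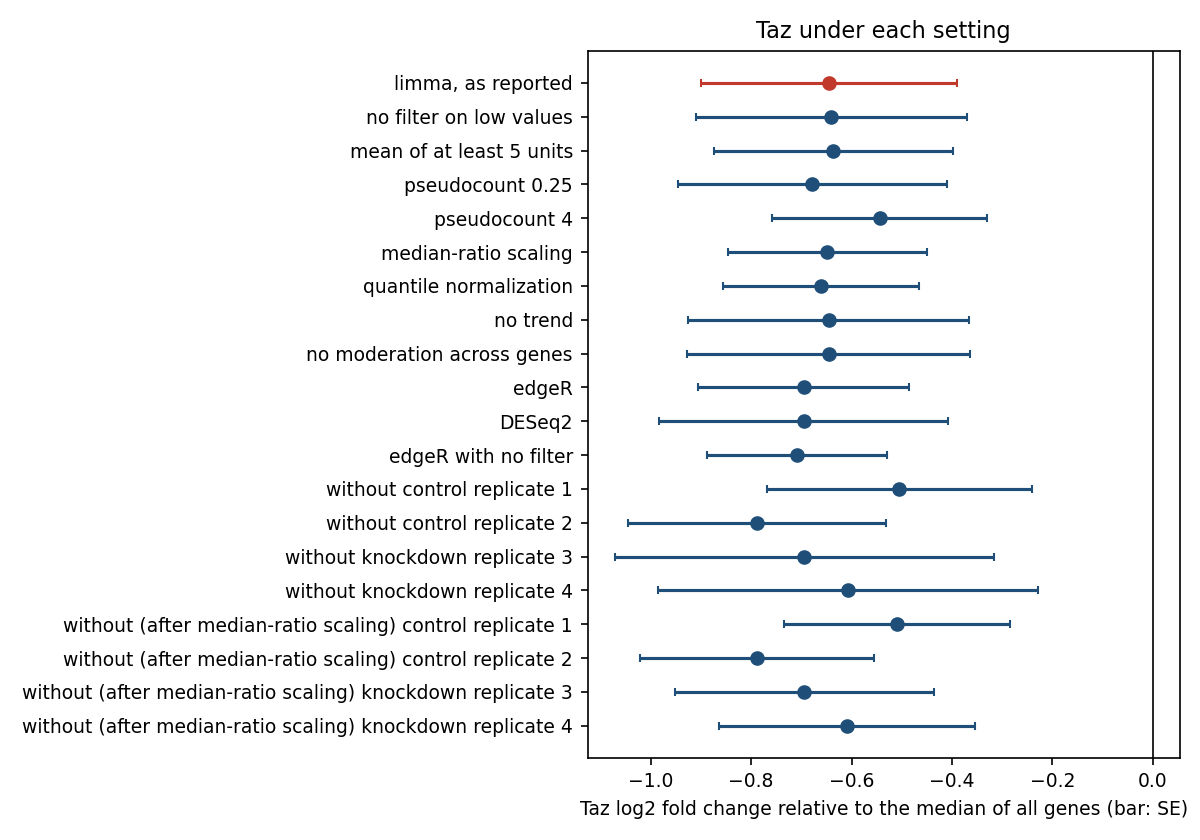
Log2 fold change of Taz, knockdown against control, relative to the median of all tested genes (x axis) under the reported fit and 19 alternatives (y axis), with bars of 1 SE. All points lie between -0.79 and -0.50, the lowest without control replicate 2 and the highest without control replicate 1.

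The background for these counts was uneven between directions. Limma at an adjusted p under 0.05 called 2.49% of the 13531 tested genes higher and 0.0443% lower, and edgeR called 1.24% higher and 0.133% lower. An unadjusted p under 0.05 was reached by 10.3% of the genes with limma, 10.1% with edgeR and 5.39% with DESeq2. On the deposited values both knockdown libraries lay above both controls in 34.9% of the genes and below both in 4.49%. After median-ratio scaling these shares were 20.4% and 20.0%. Of the tested genes 1.46% had a lower log2 fold change than Taz.

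None of the 10 cardiolipin genes was called: limma, edgeR and DESeq2 each called 0 higher and 0 lower. At an unadjusted p under 0.05 limma had 0 of 10, edgeR had Taz and Pla2g6, and DESeq2 had Taz. The median log2 fold change of the 10 genes was -0.03, against 0 for all tested genes by construction. Taz had the largest change of the group, and the other 9 lay between -0.31 for Lclat1 and 0.25 for Plscr3. This order did not hold without control replicate 1, where Tamm41 stood at -0.60 and Lclat1 at -0.53 against -0.50 for Taz. Lclat1 stood at -0.098 without control replicate 2, and Plscr3 at 0.13 without knockdown replicate 3. On the deposited values the groups did not overlap in 3 genes, Taz downward and Ptpmt1 and Plscr3 upward. After median-ratio scaling Taz and Pla2g6 lay lower and Plscr3 higher without overlap, and Ptpmt1 overlapped. On neither scale was 3 of 10 above the share of all genes, in both directions together, given by the background.

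**Figure D2:**
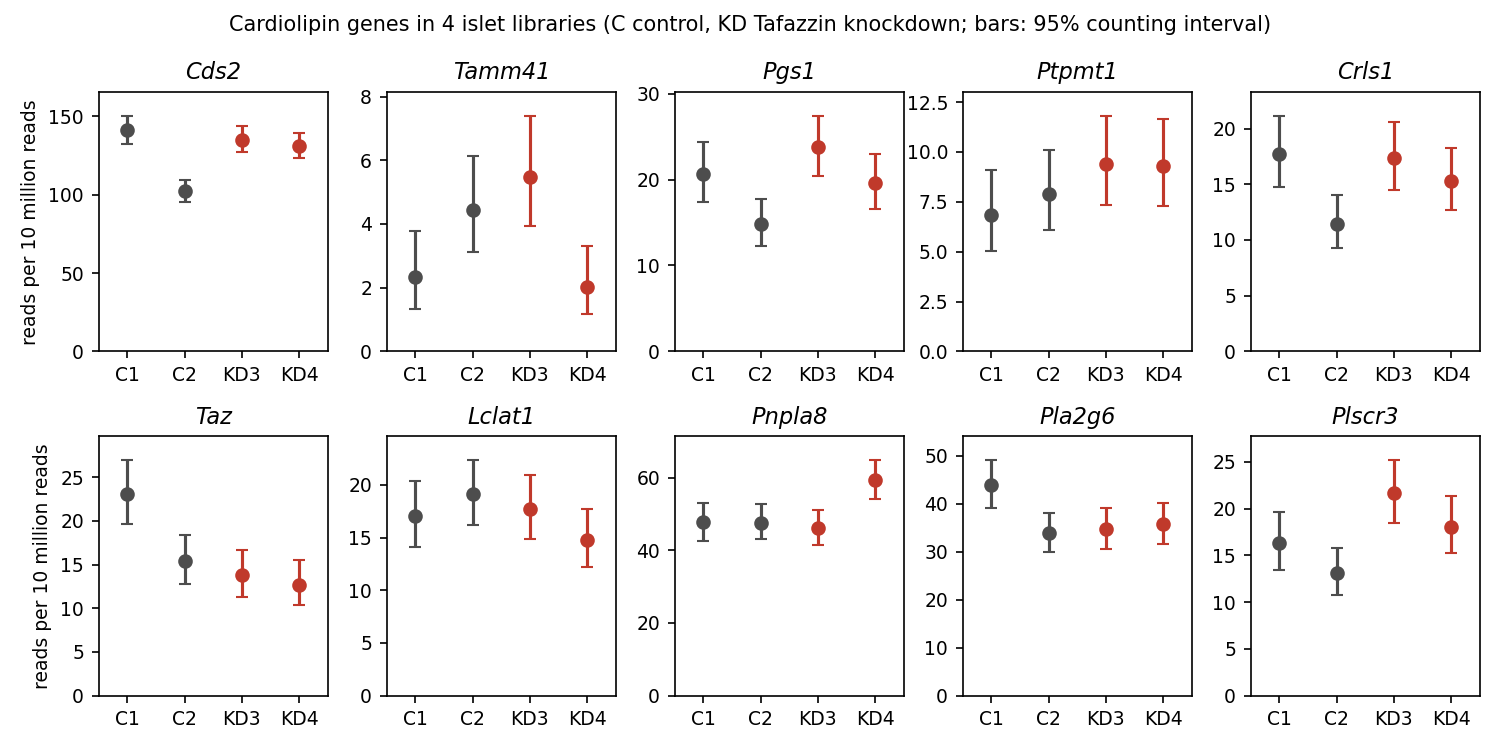
Level of each cardiolipin gene (y axis, reads per 10000000 reads of the library) in control replicates 1 and 2 (grey) and knockdown replicates 3 and 4 (red), with 95% Poisson intervals for counting error. Taz is lower in both knockdown libraries, at 13.8 and 12.7 units against 23.1 and 15.4, while Crls1, Pgs1 and Cds2 are lowest in control replicate 2.

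The biosynthetic arm begins with the CDP-diacylglycerol synthases, and neither Cds2 nor Tamm41 passed the test. Cds2, the synthase of the endoplasmic reticulum (NM_138651; chromosome 2, 132263148 to 132312050, plus strand), was the most deeply read of the 10 genes. It stood at 141 and 102 units in control islets against 135 and 131 in the knockdown, on 828 to 1036 reads a library. Only control replicate 2 was low, and the knockdown values lay between the controls. The log2 fold change was -0.02 ± 0.23 SE (limma adjusted p = 0.925), with an interval from -0.48 to 0.44. With control replicate 2 as the lone control its limma adjusted p, for the unshifted change, was 0.0657, and the log2 fold change after subtraction of the median was 0.08.

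Tamm41, the mitochondrial CDP-diacylglycerol synthase (NM_026894; chromosome 6, 115004381 to 115037874, minus strand), was the most thinly read. It stood at 2.33 and 4.44 units in control islets against 5.48 and 2.04 in the knockdown, on 16, 36, 42 and 16 reads. Each group held a high and a low library, and the groups overlapped fully. The difference of -0.11 (interval -0.79 to 0.58) did not pass the test (limma adjusted p = 0.984). Counting error on so few reads and differences between pools were not told apart.

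Pgs1 makes phosphatidylglycerol phosphate, the committed step of the pathway. It stood at 20.6 and 14.8 units in control islets against 23.7 and 19.6 in the knockdown. The groups overlapped, since control replicate 1 lay above knockdown replicate 4. Its log2 fold change was 0.12 ± 0.25 SE (limma adjusted p = 0.823). Pgs1 (NR_151726; chromosome 11, 117986857 to 118024011, plus strand) overlaps Dnah17 on the other strand over 2289 bases and holds Mir6933. Dnah17 was read at 3.82 to 6.10 units, so that part of the Pgs1 reads may belong to it, and Mir6933 at no more than 0.130 units.

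Ptpmt1, the mitochondrial phosphatase that turns phosphatidylglycerol phosphate into phosphatidylglycerol, stood at 6.83 and 7.89 units in the controls. In the knockdown it stood at 9.39 and 9.28 units. Both knockdown libraries were higher on this scale, where 34.9% of all genes showed the same order, but after median-ratio scaling control replicate 2, at 9.32, lay above both (8.73 and 8.78). The log2 fold change was 0.14 ± 0.27 SE (limma adjusted p = 0.828), and the counts of 47 to 73 reads a library limit what can be seen. The gene, NM_025576, lies on chromosome 2 from 90910713 to 90918050 on the minus strand.

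Crls1, cardiolipin synthase, joins phosphatidylglycerol and CDP-diacylglycerol to nascent cardiolipin. It stood at 17.7 and 11.5 units in control islets against 17.3 and 15.3 in the knockdown. The knockdown values lay inside the range of the controls, which were the highest and the lowest of the 4 libraries. Relative to the median the log2 fold change was 0.01 ± 0.26 SE (limma adjusted p = 0.915). Its interval, -0.49 to 0.51, takes in changes from 0.712 to 1.43 times the control. Crls1 is listed as NM_001024385 on chromosome 2, 132846666 to 132866768, plus strand.

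Of the remodelling genes beside Taz, Lclat1 encodes a lysocardiolipin acyltransferase of the endoplasmic reticulum and its contact sites with mitochondria, a route of acylation apart from Tafazzin. It was read at 17.0 and 19.1 units in control islets against 17.7 and 14.8 in the knockdown. Only knockdown replicate 4 lay below the controls. Its log2 fold change of -0.31 ± 0.25 SE did not pass the test (limma adjusted p = 0.934). Lclat1 (NM_001081071; chromosome 17, 73107985 to 73243366, plus strand) has the longest span of the group, and exons of the listed transcript make up 3.30% of it.

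The phospholipases that can start remodelling by cutting an acyl chain from cardiolipin are encoded by Pnpla8 and Pla2g6. Pnpla8, a calcium-independent phospholipase of mitochondria and peroxisomes (NM_026164; chromosome 12, 44269154 to 44313435, plus strand), stood at 47.7 and 47.6 units in the controls. In the knockdown it stood at 46.0 and 59.3 units. On the deposited values knockdown replicate 4 alone was high, and the log2 fold change was -0.03 ± 0.24 SE (limma adjusted p = 0.941). The near identity of the controls was specific to the deposited scale. After median-ratio scaling they stood at 45.9 and 56.2 units against 42.8 and 56.1 in the knockdown. On that scale control replicate 2 and knockdown replicate 4 were both high.

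Pla2g6 encodes a further calcium-independent phospholipase, known in islets for a part in stimulated insulin secretion and in membrane repair (NM_001199024; chromosome 15, 79286228 to 79328371, minus strand). It was read at 43.9 and 33.8 units in control islets against 34.7 and 35.7 in the knockdown. On this scale the knockdown libraries lay between the controls, but after median-ratio scaling both lay below them, at 32.3 and 33.8 against 42.3 and 39.9 units. The log2 fold change was -0.29 ± 0.25 SE (limma adjusted p = 0.946). After scaling the unadjusted limma p was 0.0526 and the adjusted p 0.493, and edgeR gave an adjusted p of 0.475.

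Plscr3, a phospholipid scramblase of mitochondria linked to the movement of cardiolipin from the inner to the outer membrane, was the highest of the group by fold change. It stood at 16.3 and 13.1 units in control islets against 21.6 and 18.1 in the knockdown. Both knockdown libraries lay above both controls, also after median-ratio scaling (20.1 and 17.1 against 15.7 and 15.4). The log2 fold change of 0.25 ± 0.25 SE did not pass the test (limma adjusted p = 0.635, interval -0.25 to 0.75). Plscr3 (NM_001168497; chromosome 11, 69846372 to 69852058, plus strand) overlaps the kinase gene Tnk1 on the other strand over 1496 of its bases. Tnk1 was itself read at 15.0 and 11.0 units in control islets against 17.1 and 16.2 in the knockdown, and reads of the shared bases cannot be assigned to either gene without strand.

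**Figure D3:**
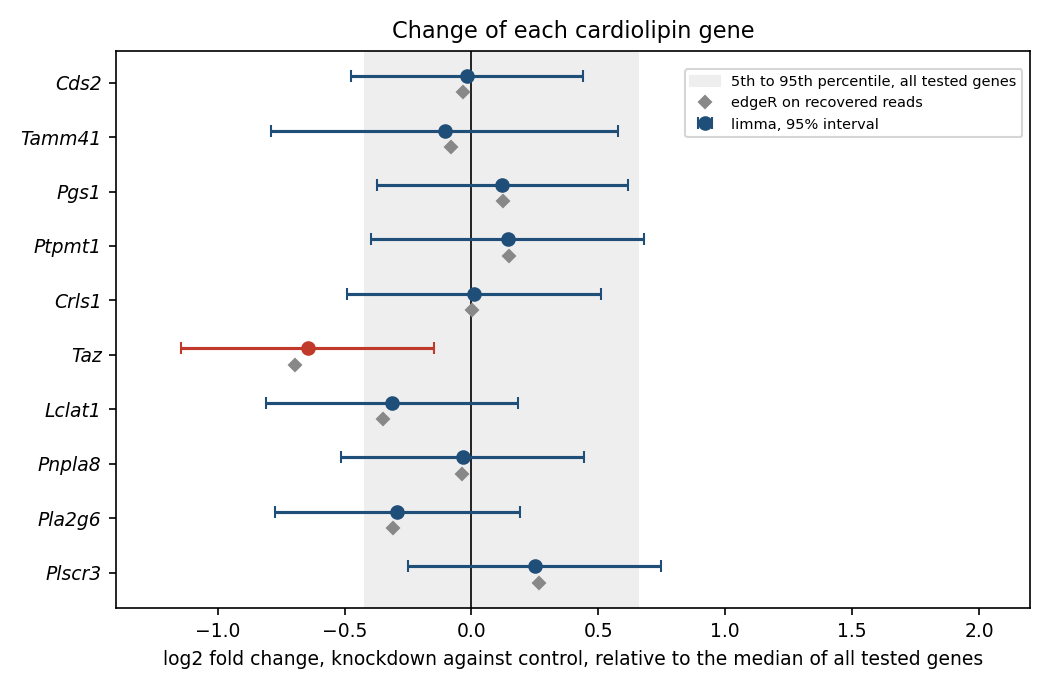
Log2 fold change, knockdown against control, of each cardiolipin gene relative to the median of all tested genes (x axis), by limma with its 95% interval (circles) and by edgeR (diamonds), beside the 5th to 95th percentile of all tested genes (grey band, -0.42 to 0.65). The interval of Taz runs from -1.15 to -0.15, and those of the other 9 genes include 0.

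Ratios between genes of 1 library do not depend on its scaling, and were examined after the values had been seen. Taz was read at 1.30 and 1.34 times the level of Crls1 in the controls and at 0.797 and 0.833 times in the knockdown. Against Pgs1 its ratio was 1.12 and 1.04 in the controls against 0.582 and 0.649 in the knockdown. Against Cds2 it was 0.164 and 0.151 in the controls against 0.102 and 0.0969 in the knockdown. In these 3 genes control replicate 2 was the lowest library, and the controls lay close together and apart from the knockdown. With other partners the controls lay far apart. The ratio to Ptpmt1 was 3.38 and 1.95 against 1.47 and 1.37, and that to Pnpla8 was 0.485 and 0.324 against 0.3003 and 0.215. The ratio to Lclat1, at 1.36 and 0.806 against 0.779 and 0.862, overlapped between the groups.

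Over all 9 partners the ratio of Taz was lower without overlap in 7, and it overlapped with Tamm41 and Lclat1 as partners. The ratios share their numerator and are not independent, so that this count adds no support beyond the row of Taz itself. No such count over all tested genes is given. Among the 36 ratios between the other genes 12 did not overlap, in both directions together. If all orders of the 4 libraries were equally likely, the groups would separate, in either direction, at a rate of 0.333. Plscr3 was higher without overlap against 6 of 9 partners, Taz among them, and Pla2g6 was lower against 5 and higher against 1. The ratios behind each of these counts also share a gene and are not independent. As a share of all reads of the 10 genes, Taz made up 6.86% (exact 95% interval 5.87% to 7.97%) and 5.72% (4.78% to 6.77%) in the controls. It made up 4.25% (3.495% to 5.12%) and 4.00% (3.27% to 4.84%) in the knockdown. The interval of control replicate 2 overlaps both knockdown intervals. No test was made of these shares, in which Cds2 holds the most reads, but without Cds2 the order was the same, at 11.8% and 9.20% against 7.28% and 6.81%.

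**Figure D4:**
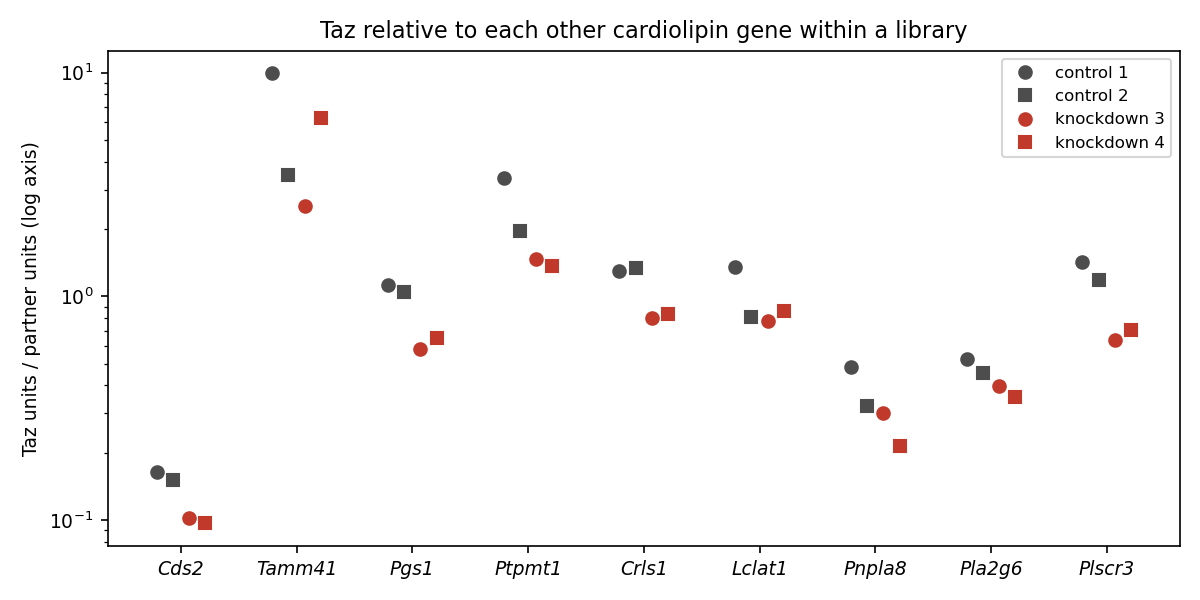
Level of Taz divided by that of each other cardiolipin gene in the same library (y axis, log scale) for control replicates 1 and 2 (grey) and knockdown replicates 3 and 4 (red). The knockdown ratios lie below both controls for 7 of the 9 partners, and overlap them for Tamm41 and Lclat1. The ratios share Taz and are not independent.

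Levels of different genes can be set side by side only per length. In units per kilobase of exon of the listed transcript, averaged over the 4 libraries, the order was Cds2 at 15.2, Pnpla8 at 11.4, Pla2g6 at 11.0, Plscr3 at 9.41, Pgs1 at 8.96, Taz at 8.89, Crls1 at 8.10, Ptpmt1 at 6.33, Lclat1 at 3.84 and Tamm41 at 3.06. For Pgs1 and Ptpmt1 the annotated transcript with the closest ends was used. Neighbours in this order overlapped over the 4 libraries, except that Ptpmt1 (5.18 to 7.12) stood apart from Lclat1 (3.30 to 4.28). Taz itself ranged from 6.95 in knockdown replicate 4 to 12.6 in control replicate 1, where it was higher per kilobase of exon than Pnpla8 at 10.8. Per kilobase of genomic span the order differed, with Plscr3 at 3.04, Cds2 at 2.61 and Taz at 2.19 on top and Lclat1 at 0.127 and Tamm41 at 0.107 at the bottom. Since reads of introns are included, neither order is a ranking of mature mRNA.

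Other genes of phospholipid metabolism were taken from 5 lists of textbook pathway members, and none of their 50 tested genes was called by limma, edgeR or limma after scaling. The supply of phosphatidic acid had 12 tested genes, whose log2 fold changes had a median of -0.02, and 1 had an unadjusted limma p under 0.05. For each list the gene with the most reads over the 4 libraries is given, which is no ranking of abundance, since longer genes collect more reads. In this list it was Gpd2, the mitochondrial glycerol phosphate dehydrogenase, at 127 and 92.0 units in control islets against 99.2 and 103.6 in the knockdown. The largest statistic was that of Gpat3, a glycerol phosphate acyltransferase, at 0 and 0.740 units in control islets against 1.57 and 1.78 in the knockdown (limma adjusted p = 0.476), too few reads for a fold change that does not depend on the pseudocount.

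Log2 fold changes of the genes for lipid transfer and cardiolipin binding in mitochondria were under 0 in 8 of 8. Their median was -0.12, and 0 had an unadjusted limma p under 0.05. Subtraction of the median by itself leaves 50% of all tested genes under 0. Before it, Prelid1, Prelid3b, Triap1, Stoml2 and Dnajc19 were above 0, and Prelid2, Prelid3a and Nme4 under 0. The most reads fell on Prelid1, which carries phosphatidic acid to the inner membrane, at 49.1 and 46.0 units in control islets against 55.3 and 45.8 in the knockdown. The largest statistic was that of Nme4, a mitochondrial nucleoside diphosphate kinase that binds cardiolipin, at 4.65 and 1.73 against 2.87 and 1.02 units (limma adjusted p = 0.796). The groups overlapped in both genes.

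Other genes of cardiolipin remodelling and lipid hydrolysis had a median of 0.08 over 7 tested genes. Lpgat1, a lysophosphatidylglycerol acyltransferase, held the most reads, at 88.5 and 66.4 units in control islets against 86.6 and 95.4 in the knockdown. Hadhb, the beta subunit of the mitochondrial trifunctional protein, went from 7.27 and 8.88 units to 13.2 and 13.5 with a log2 fold change of 0.50 ± 0.27 SE, and did not pass the test (limma adjusted p = 0.223, unadjusted p = 0.0122). Its row overlaps that of another gene, as does Hadha, the alpha subunit, for which monolysocardiolipin acyltransferase activity has been described and which stood at 63.1 and 51.2 against 61.9 and 61.6 units.

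The branches that make phosphatidylcholine, phosphatidylethanolamine, phosphatidylserine and phosphatidylinositol had a median of -0.03 over 17 tested genes, with 0 at an unadjusted limma p under 0.05. Etnk1, an ethanolamine kinase, held the most reads, at 180.03 and 128 units in control islets against 155 and 163 in the knockdown. Pcyt2, which activates phosphoethanolamine with CTP, had the largest statistic, at 8.14 and 9.87 against 14.6 and 11.7 units (limma adjusted p = 0.525). Of the lysophospholipid acyltransferases, 6 tested genes with a median of 0.13, Mboat1 and Lpcat1 had an unadjusted limma p under 0.05. Lpcat1 stood at 9.30 and 8.63 against 11.7 and 15.6 units without overlap (limma adjusted p = 0.416). Lpcat3 held the most reads over the 4 libraries together, at 43.4 and 41.9 against 53.7 and 49.2 units, in a row that overlaps another gene. Mboat1 had the largest statistic of all 5 lists, at 2.33 and 1.23 units in control islets against 8.35 and 2.54 in the knockdown (limma adjusted p = 0.0873). Only knockdown replicate 3 was high in Mboat1.

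**Figure D5:**
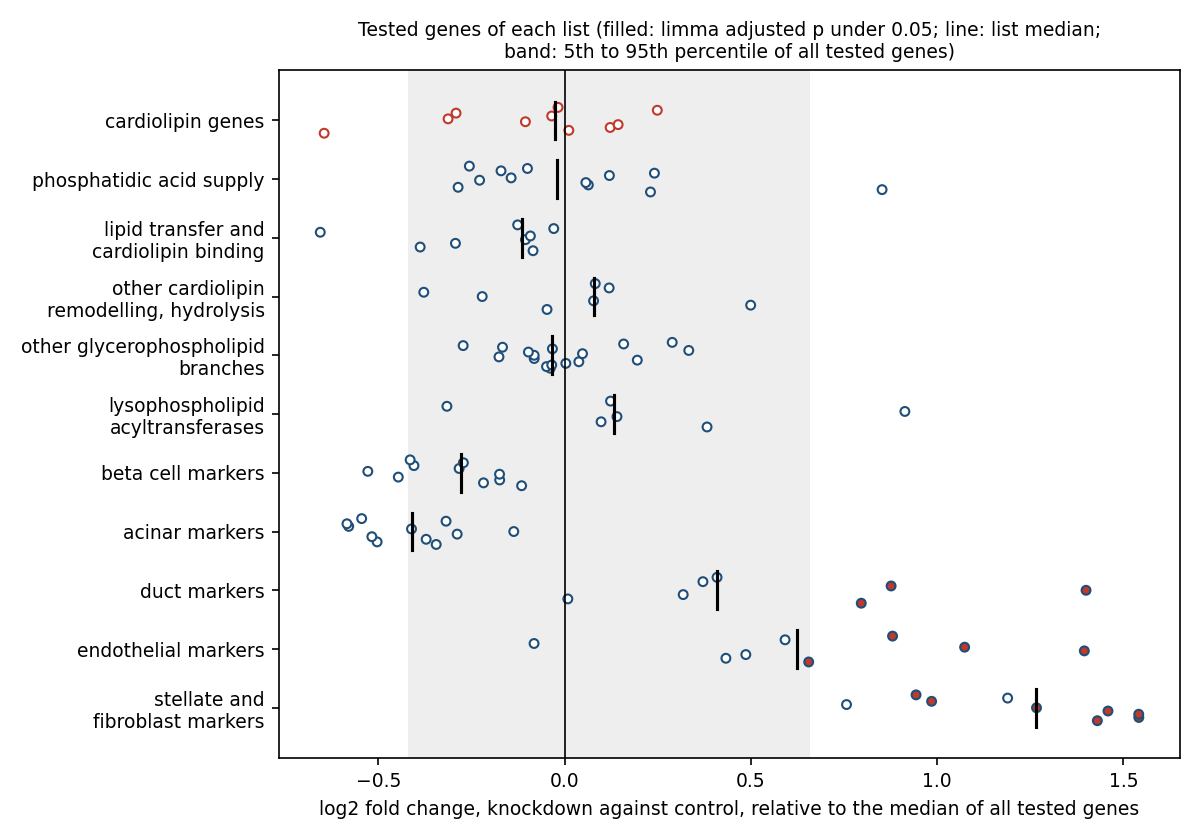
Log2 fold change of each tested gene, knockdown against control, relative to the median of all tested genes (x axis) for the cardiolipin genes, 5 lists of phospholipid genes and 5 lists of cell type markers (y axis), with list medians as lines. The cardiolipin genes have a median of -0.03 and no called gene, whereas stellate and fibroblast markers have a median of 1.27 with 7 of 9 called.

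Markers of the labelled tissue were abundant: the 10 beta cell markers summed to 99387 and 78523 units in control islets against 83632 and 90809 in the knockdown. Relative to the median, which leaves 50% of all tested genes under 0, their log2 fold changes were all under 0. They ran from -0.53 for Mafa, an activator of the insulin genes, to -0.12 for Ins1. Only Ins1 was above 0 before the subtraction. On the deposited values 0 were called by limma or edgeR, while limma after median-ratio scaling called Mafa lower (adjusted p = 0.0198). The change of Taz, -0.65 ± 0.25 SE, lay below that of each of these markers. Mafa stood at -0.53 ± 0.23 SE, and the difference between Taz and these markers was not tested. The markers of alpha, delta and PP cells summed to 7516 and 7974 against 8996 and 8482 units, with 0 of 6 called.

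Markers of some other cell types differed between the groups in the same libraries. The 9 stellate and fibroblast markers summed to 102 and 109 units in control islets against 315 and 250 in the knockdown, with 7 of 9 called higher by limma and 6 by edgeR. The collagen gene Col1a1 stood at 18.6 and 17.5 against 66.5 and 48.1 units. For 8 endothelial markers the sums were 164 and 147 against 312 and 243 units. Pecam1, Vwf, Plvap and Eng were called higher by limma and the last 3 by edgeR. Of the 8 only Esm1 had a log2 fold change under 0, at -0.08. For the duct list the sums were 659.95 and 666 against 1318 and 850.3 units. Of 7 tested duct genes limma called Krt19, Sox9 and Spp1 higher, and edgeR only Spp1. Spp1 stood at 252 and 251 against 720 and 373 units, and Krt7 at 246 and 167 against 224 and 234. Acinar markers, 11 genes with 0 called, summed to 2888 and 5917 in the controls against 5149 and 2371 in the knockdown, so that control replicate 2 and knockdown replicate 3 were high. Relative to the median of all tested genes, the log2 fold changes of all 11 were under 0, with a median of -0.41. Before the subtraction that of Pnlip was above 0. Macrophage markers summed to 54.6 and 45.1 against 60.1 and 49.1 units. Only Lyz2, a lysozyme gene at 1.60 and 0.370 against 6.78 and 5.596 units, was called higher of 5 tested. The other 4, Cd68, Csf1r, Cd74 and C1qa, had log2 fold changes between -0.21 and -0.03, and none was called. Lymphocyte markers were near 0, with sums of at most 2.87 units and Ms4a1 at 0 in every library, and red blood cell markers summed to at most 17.2 units, in knockdown replicate 3, with Hbb-bt at 0 in every library. The part of these differences in the levels of Taz and the other cardiolipin genes was not tested.

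The genes whose pattern over the 4 libraries was closest to that of Taz were sought among 2398 genes that overlap no other gene and have a mean within 1.5 times its own. The measure was the Euclidean distance between log2(value + 1) profiles centred on their means, with a median of 0.746 over these genes. The nearest was Trpc1, a cation channel, at a distance of 0.115, with 35.2 and 22.2 units in control islets against 21.9 and 18.3 in the knockdown. Rsph3b, a radial spoke gene whose reads are uncertain because of a close paralog, followed at 0.140, Ppm1e, a protein phosphatase, at 0.169, Creld1 at 0.195 and the forkhead gene Foxo6 at 0.208. Control replicate 1 was the highest library in each, as in Taz, none was called (limma adjusted p 0.542 to 0.805), and 4 libraries give such a likeness little weight.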

How the data were processed

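The authors deposited 1 table of 24940 genes by 4 libraries. It is named as FPKM. The values the authors deposited behave instead as a signal per 10000000 reads of the library, unscaled for length. With the library total inferred from the values, 100% were whole multiples of 1 read within 0.01 reads, so whole reads were recovered. Per the submitters' processing notes, STAR 2.5.1b, HOMER 4.9, edgeR and the build mm10 were used, in roles that are not given. The counted region and strand are not given in the sources used here. The length column equals the genomic span in 99.2% of rows, and of 514 pairs of a gene at 10 units or more lying inside another, the host was at least as high in 511, on either strand. Values were therefore read as unstranded counts over gene bodies.

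Genes of 200 nt or longer whose mean reached 1 unit were tested by limma 3.58.1 in R 4.3.3, with trend, on log2(value + 1), two-sided, with Benjamini-Hochberg adjustment over all 13531 genes at 0.05. The estimated prior degrees of freedom were infinite, so the spread came from the trend over all genes. The edgeR 4.0.16 quasi-likelihood test and DESeq2 1.42.0 on recovered reads, other scalings, pseudocounts and filters, and each library left out in turn were alternatives. The plan had assumed FPKM, and its log-scale test was kept. Scripts were tested on simulated data. Exon lengths come from GENCODE M21.

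Replicate numbers are those of the labels and pair no samples. Libraries are separate pools. The p-values of the reported limma fit rest on a spread between pools drawn from all genes, not on that of the gene itself. Genes named beside the 10 are those that overlap them, the gene with the most reads and the largest statistic of each pathway list, and the 5 genes nearest to Taz. Hadha, Lpcat1 and the marker genes named were picked out in places for their values. Members and lists were chosen with earlier results of these data known.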

Additional observations from a re-analysis of the deposited data

How the results depend on the processing

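No cardiolipin gene was called in any of the 19 alternatives, and Taz kept a negative log2 fold change in all of them. The number of all genes called moved more. From 337 higher and 6 lower it went to 80 and 0 with no filter on low values (1513 genes at an unadjusted p under 0.05), 151 and 21 after median-ratio scaling, 528 and 16 without the trend, 168 and 18 with edgeR, and 83 and 11 with DESeq2. After quantile normalization 86 were higher. Without moderation across genes (limma, 865 at an unadjusted p under 0.05) and with edgeR and no filter (1138) it was 0 in both directions. With 1 library left out, on deposited or scaled values, it ran from 0 to 1266 higher and 0 to 68 lower, where the lone sample of a group is assumed to vary like the other group. On deposited values it was 1266 and 37 without control replicate 1, 361 and 59 without control replicate 2, 28 and 4 without knockdown replicate 3, and 324 and 3 without knockdown replicate 4. The value of 0 came after scaling without control replicate 1, at 857 genes with an unadjusted limma p under 0.05.

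Changes near 0 turned sign. Crls1 went from 0.01 to -0.0052 after quantile normalization and -0.011 with edgeR and no filter, and Cds2 from -0.02 to 0.010 with a pseudocount of 4 and 0.068 after quantile normalization. With 1 library left out Crls1 ran from -0.15 to 0.17, Pgs1 from -0.0060 to 0.24, Ptpmt1 from -0.084 to 0.37, Tamm41 from -0.64 to 0.44, Pnpla8 from -0.24 to 0.15 and Cds2 from -0.12 to 0.078. The cause was not tested. No paired analysis was possible because the groups share no replicate number. Depth limits Tamm41 and Ptpmt1 most, at 16 to 42 and 47 to 73 reads a library.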
